A study of Mus musculus with 12 samples.

Results

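The lungs of mice that had received lipopolysaccharide (LPS) were compared with the lungs of mice that had not, whether or not the mice had also been given bovine lactoferrin. All 12 libraries of the series entered the comparison, 6 exposed to LPS against 6 unexposed, chosen by their labelled treatment with lactoferrin as a covariate. The unexposed lungs were 3 of the control group and 3 of the bLF group (bovine lactoferrin at 200 mg/kg/day, a transferrin-like glycoprotein of milk that binds iron). The exposed lungs were 3 of the LPS group (50 µL of LPS at 1 µg/µL) and 3 of the LPS+bLF group, which had both agents. All mice were male BALB/c, 6 to 8 weeks old and of 20 g, carried no labelled genetic change, and came from 24 mice divided into groups of 6. Lungs were taken after 14 days, and the route and the day of LPS are not given in the labels. The treatment field of the last group reads "LBS+BLF", which was taken as LPS with bLF because the titles and the design text say so. Of 17920 genes in the files, 13735 reached 0.5 FPKM in at least 3 of the 12 libraries and were tested. The question was which genes differed in all or most of the 6 exposed lungs.

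LPS is a glycolipid that Gram-negative bacteria carry on their surface. In the lung it is bound by LPS-binding protein and CD14 and sensed by the receptor TLR4 with its partner MD-2, mainly on macrophages, after which NF-kB drives cytokines and chemokines that bring in neutrophils and then monocytes. Most of these acute transcripts are known to be short-lived, while recruited monocytes can stay and take on the features of tissue macrophages.

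Library totals lay between 16714327 and 17820645 counts, so depth was nearly even. CPM are counts relative to the library total, and the levels below are scaled with TMM factors. Before that scaling, a count of 0 allowed up to 0.168 to 0.179 CPM, which covers counting error only. Each library came from 1 mouse, so the p-values measure the spread between these mice. That spread was wide, with a common biological coefficient of variation of 0.357 over all 12 libraries (0.297 when LPS replicate 1 was left out). This library stood apart, with the highest neutrophil, cell cycle and glucocorticoid-induced gene levels of the 12 and 3067 genes at a count of 0, against 1499 to 1963 in the others. Control replicate 1, bLF replicate 1 and LPS+bLF replicates 2 and 3 were high in genes of heart, fat, skeletal muscle or squamous epithelium. Surfactant protein C (Sftpc), which defines alveolar type 2 cells, was between 29400 and 91400 CPM in all 12, while the 20 alveolar markers together were lowest in LPS replicate 1 (-1.12 on the log2 scale relative to the unexposed mean). Some of the results below are also given without such libraries, and others rest on all 12 libraries only.

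By edgeR's quasi-likelihood test with Benjamini-Hochberg adjustment, 0 of 13735 genes (0%) were called at an adjusted p under 0.05 in the additive model. The smallest adjusted p was 0.113, shared by 9 genes. With nothing to find, a share of about 0.05 of the genes would have an unadjusted p under 0.05, split evenly between the directions. At an unadjusted p under 0.05, 654 genes (4.76%) were higher and 269 (1.96%) lower in the exposed lungs, the lower share being below its part. With any 1 library left out these counts lay between 445 and 911 and between 141 and 586; the lower count moved most without LPS replicate 3 (586), control replicate 1 (431), bLF replicate 3 (141), control replicates 3 and 2 (150 and 179) and LPS+bLF replicate 3 (165). DESeq2 on the same design called 96 genes higher (0.699%) and 14 lower (0.102%). Limma voom with array weights, which gives less weight to aberrant libraries, called 125 higher (0.91%) and 24 lower (0.175%), and 83 genes were called by both of these. Limma on log2(FPKM + 1) called 0 in either direction. When LPS replicate 1 was left out, 11 genes (0.0801%) passed with edgeR, each of them higher in the exposed lungs. On simulated counts of this design, 200 genes were changed by a log2 size of 1 or 2. They were drawn from genes with a mean above 1 CPM, so the rates do not cover tested genes at lower levels. Those of size 1 were recovered at a rate of 66% by edgeR and of 79% by DESeq2. Over the whole run edgeR made 3 false calls and DESeq2 made 45. The simulated counts held no aberrant library and no lactoferrin difference, so they cannot settle how strict the DESeq2 list is here. None of the genes described below passed edgeR's threshold with all 12 libraries, and their differences are given as values.

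A second description needed no model. A gene was counted as showing no overlap when all 6 exposed libraries lay on the same side of all 6 unexposed ones in CPM. There were 103 such genes higher in the exposed lungs (0.75% of those tested) and 19 lower (0.138%). How many would separate by the order of the libraries alone was not computed, so neither count is read as an excess. Allowing at most 1 library to be left out, the counts were 418 higher (3.04%) and 243 lower (1.77%). On the deposited FPKM in place of CPM, 68 were higher and 15 lower, and 62 genes had no overlap on both scales. DESeq2 called 61 of the 103 higher genes and 7 of the 19 lower ones. The median log2 fold change was 0.74 over the 103 higher genes (range 0.21 to 1.85) and -0.42 over the 19 lower ones (range -0.81 to -0.22), against -0.01 over all tested genes. Among the 103, LPS replicate 1 was the highest of the exposed libraries for 59 genes, and the library closest to the unexposed was LPS+bLF replicate 1, 2 or 3 for 29, 23 and 25 genes. Of the 103 genes, 38 were in at least 1 of the 38 gene lists used, which cover cell types, immune pathways and other tissues, and the rest were in none.

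Ms4a7, a membrane-spanning protein of monocytes and macrophages whose gene lies on chromosome 19 (GRCm38.p6, 11321039 to 11336146), was among the largest differences. It was at 1.15, 1.57 and 1.83 CPM in the control libraries and 1.75, 1.02 and 1.49 CPM in the bLF libraries, against 6.94, 6.63 and 8.12 CPM with LPS and 2.97, 2.92 and 4.01 CPM with LPS+bLF. All 6 exposed lungs were above all 6 unexposed, and the LPS lungs were above the LPS+bLF lungs. The log2 fold change was 1.74 (SE 0.26, 3.33-fold, edgeR adjusted p = 0.113), between 1.61 and 1.87 when any 1 library was left out.

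The 3 genes for the anti-apoptotic protein A1, a Bcl2 relative that NF-kB induces in leukocytes, were all higher. Bcl2a1d, the gene with the smallest p of all, was at 5.58, 5.03 and 5.26 CPM in the control lungs and 4.33, 6.3 and 5.91 CPM with bLF. It was at 16, 10.1 and 15.4 CPM with LPS and 10.2, 9.96 and 10.5 CPM with LPS+bLF, a log2 fold change of 1.14 (SE 0.17, edgeR adjusted p = 0.113). Bcl2a1a had 3.96 to 5.2 CPM in the unexposed and 6.74 to 14.3 CPM in the exposed lungs (1.09, SE 0.18), and Bcl2a1b had 3.14 to 5.16 and 7.34 to 21.5 CPM (1.36, SE 0.25). No exposed lung overlapped with an unexposed one for any of the 3. Bcl2a1b differed more without (1.92) than with lactoferrin (0.8), with an unadjusted interaction p of 0.0145 in edgeR's quasi-likelihood test, where 0 genes passed the adjustment. These genes are near-identical copies on chromosome 9, so the division of reads among them is uncertain and they should not be read as 3 separate observations. Of the 17 tested Bcl2 family genes, these 3 were the only ones without overlap, and the median of the list was 0.14.

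Inhibitory and activating receptors of myeloid cells were the next group. Siglece, a sialic acid receptor that dampens signalling in macrophages and neutrophils, was at 11.6, 7.29 and 10 CPM (control), 12.8, 11.1 and 12.3 CPM (bLF), 22.2, 20.5 and 22.2 CPM (LPS) and 17, 19.7 and 22.2 CPM (LPS+bLF). The exposed libraries were tightly grouped, and the log2 fold change was 0.93 (SE 0.14, edgeR adjusted p = 0.113). Slamf9, a SLAM family receptor of myeloid and dendritic cells, was at 7.92 to 12.3 CPM (median 9.44) in the unexposed and 14.6 to 33.8 CPM (median 23.8) in the exposed lungs (1.25, SE 0.2, edgeR adjusted p = 0.113). Slamf9 too showed no overlap, with the lowest exposed value in LPS+bLF replicate 2.

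PU.1, the transcription factor that sets up myeloid gene expression, is encoded by Spi1, itself 1 of the 103 genes. Its level was 46.3 to 78.1 CPM (median 71.3) in the unexposed and 93.8 to 184 CPM (median 106) in the exposed lungs, a log2 fold change of 0.79 (SE 0.19, edgeR adjusted p = 0.27). Promoter letters were searched for the PU.1 core GAGGAAGT on both strands of the 250 bases before each start (RefSeq, GRCm38.p6, first start listed per gene). The letters were found in 9 of the 86 higher no-overlap genes with a promoter in the table (10.5%), in 0 of 17 lower ones, and in 272 of 10930 tested genes (2.49%). Near-identical genes, such as the Bcl2a1 copies, were not merged in these counts. Of the 4 genes with the smallest p and at least 1 FPKM, Bcl2a1d and Slamf9 held a match and Ms4a7 and Siglece did not. The upstream bases of the first pair are shown with the match in capitals. Bcl2a1d is on the minus strand (chr9:88731851-88732100) with the match from position -104, and Slamf9 on the plus strand (chr1:172475110-172475359) with the match from position -8, counted back from the start. The start used for Slamf9 lies inside the annotated span of the gene (172458569 to 172478421), not at its outer end.
Bcl2a1d: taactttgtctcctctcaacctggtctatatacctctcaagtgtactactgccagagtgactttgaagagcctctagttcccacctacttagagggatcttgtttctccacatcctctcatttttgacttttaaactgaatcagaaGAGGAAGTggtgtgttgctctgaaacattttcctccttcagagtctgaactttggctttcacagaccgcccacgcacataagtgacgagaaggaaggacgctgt
Slamf9: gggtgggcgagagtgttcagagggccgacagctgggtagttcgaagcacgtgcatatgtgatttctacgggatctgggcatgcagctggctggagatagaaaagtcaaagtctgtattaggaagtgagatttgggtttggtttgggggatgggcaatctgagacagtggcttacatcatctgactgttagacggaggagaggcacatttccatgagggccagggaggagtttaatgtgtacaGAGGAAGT
Other letters searched were the NF-kB motifs GGACTTTCC and GGAATTTCC (2 of 86 higher genes, 2.33%, against 0.622% of all tested), the interferon response core GAAANNGAA (12.8% against 6.31%) and the GAS motif TTCNNNGAA (9.3% against 6%). Of the 17 lower genes with a promoter, 0 held an NF-kB match, 1 the interferon core (5.88%) and 2 the GAS motif (11.8%). GAS and the interferon core can overlap at a shared GAA. A match describes these letters only, and binding was not measured.

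**Figure D1:**
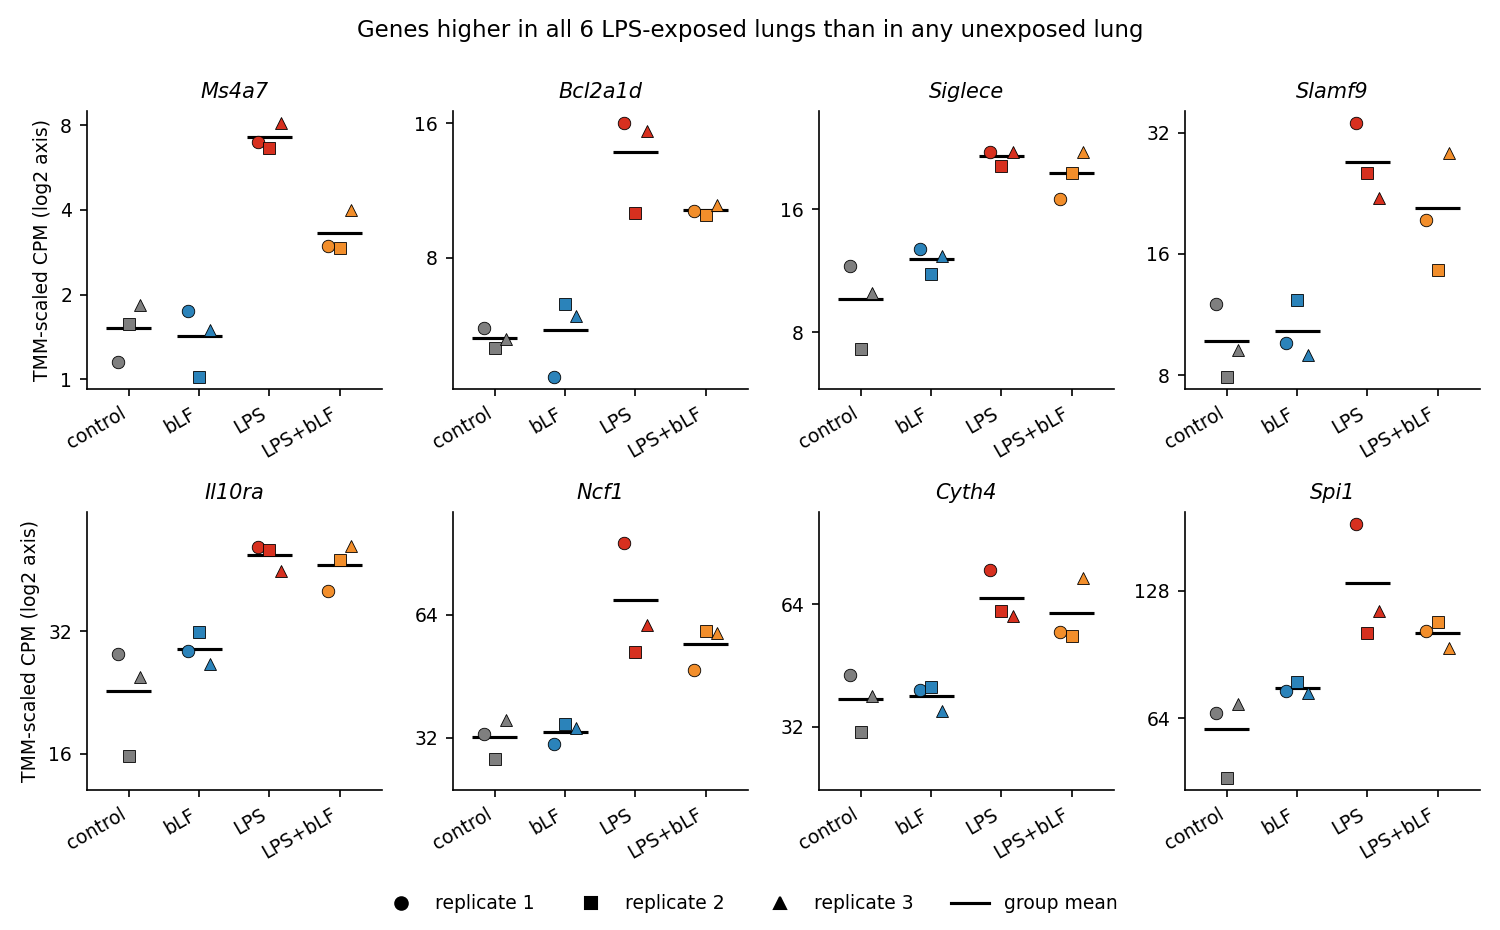
TMM-scaled CPM (log2 axis) of 8 genes in the 12 libraries, by group; symbols are replicates and bars are group means of 3. In each panel all 6 LPS and LPS+bLF libraries lie above all 6 control and bLF libraries, as for Ms4a7 with 2.92 to 8.12 against 1.02 to 1.83 CPM.

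The same arrangement held for 4 further receptor genes, 3 of them picked after their values were seen. Clec12a, an inhibitory receptor for uric acid crystals on myeloid cells, was at 6.94 to 10.2 CPM in the unexposed and 11 to 19.6 CPM in the exposed lungs (0.84, SE 0.15), and Clec4n (dectin-2, which binds fungal mannans) at 4.92 to 6.93 and 9.5 to 32.3 CPM (1.34, SE 0.26). Cd200r1 and its relative Cd200r4, which take part in the restraint or activation of myeloid cells, were at 2.08 to 2.85 against 3.1 to 6.8 CPM (0.89, SE 0.18) and 1.13 to 1.55 against 2.09 to 3.81 CPM (1.19, SE 0.21). In each of these 4, the lowest exposed lung lay above the highest unexposed lung. Clec12a, Clec4n, Ms4a7 and the 3 Bcl2a1 genes were among the 11 genes that edgeR called without LPS replicate 1. Clec12a had the smallest adjusted p there (0.0238 by edgeR's quasi-likelihood test with Benjamini-Hochberg adjustment, log2 fold change 0.94, SE 0.1). The others of the 11 were Ncf1, Irf5, Pstpip1, Mcemp1 and Ly86. With the 4 libraries high in genes of other tissues left out as well, edgeR called 1 gene.

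Irf5, a transcription factor downstream of Toll-like receptors, and Ly86 (MD-1, partner of the TLR4 relative CD180) shared a pattern in which LPS replicate 1 alone stayed with the unexposed. Irf5 was at 16.8 CPM in that library, within the unexposed range of 15.3 to 20.8 CPM, and at 26.3 to 33 CPM in the other 5 exposed lungs. Ly86 was at 10.9 CPM there, against 10.7 to 18.3 CPM in the unexposed and 23 to 38.7 CPM in the other 5. Without that library the log2 fold changes were 0.7 (SE 0.1) and 1.11 (SE 0.17), both with an edgeR adjusted p of 0.0471. Irf5 and Clec12a were picked for description on the basis of these values.

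Leukocyte signalling and actin cytoskeleton genes were higher almost throughout. Of the list's 46 tested genes, 45 were higher in the exposed lungs by the fitted log2 fold change, 24 at an unadjusted p under 0.05 and 9 without overlap, with a median of 0.5. Over all tested genes 4.76% were higher at that p and 0.75% without overlap, with a median of -0.01, which is the background for the list counts that follow too. DESeq2 called 10 of the 46. Cyth4, an exchange factor for ARF GTPases in blood cells, was at 31.1 to 43 CPM (median 38.8) in the unexposed and 53.6 to 77.6 CPM (median 60.8) in the exposed lungs (0.75, SE 0.12, edgeR adjusted p = 0.113). Nckap1l (HEM1), a subunit of the WAVE complex that branches actin in leukocytes, was at 19.7 to 23.6 CPM (median 21.1) and 25 to 43.1 CPM (median 36.6), a log2 fold change of 0.7 (SE 0.12). Both genes were separated between the groups in every library. Pik3r5, the p101 regulatory subunit of PI3K gamma, was at 13.6 to 22.3 against 25.5 to 54 CPM (0.9, SE 0.2). Snx20, a sorting nexin that handles the selectin ligand PSGL-1 and is in no list, was at 6.29 to 10.3 against 14.5 to 19.2 CPM (0.9, SE 0.15). The mean of the whole list was above all unexposed libraries in 4 of 6 exposed ones; LPS replicate 1 was at 0.03 on the log2 scale and LPS+bLF replicate 3 at 0.17, beside an unexposed maximum of 0.17.

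Ptprc (CD45), a phosphatase that nearly all leukocytes carry, was at 32.6 to 46.4 CPM (median 39.6) in the unexposed and 40.7 to 75.1 CPM (median 55.2) in the exposed lungs, with 5 of 6 exposed libraries above all unexposed ones (log2 fold change 0.5, SE 0.14, edgeR adjusted p = 0.431). In bulk tissue, more cells of a type and more RNA per cell cannot be told apart. The monocyte and interstitial macrophage markers had a summed level of 1910 to 3270 CPM in the unexposed and 2190 to 5100 CPM in the exposed lungs. None of the 29 genes of this list was at 0 in all 12 libraries. The list mean was 0.95 in LPS replicate 1, where that of the leukocyte signalling list was 0.03. The part of cell number in the leukocyte results was not tested.

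Within that marker list 26 of 29 genes were higher, 16 at an unadjusted p under 0.05 and 3 without overlap, with a median of 0.75. C1qa, a chain of the first complement component made by tissue macrophages, was at 38.8 to 58 CPM (median 51.2) in the unexposed and 59.4 to 109 CPM (median 88.1) in the exposed lungs (0.77, SE 0.18, edgeR adjusted p = 0.277). C1qc had 1 exposed library, LPS+bLF replicate 3 at 35.8 CPM, below the highest unexposed value of 36.1 CPM (0.8, SE 0.17). Mrc1, the mannose receptor of alternatively activated macrophages, was at 20.4 to 33 against 36.5 to 116 CPM, with the top value in LPS replicate 1 (0.92, SE 0.27). Its log2 fold change was 0.59 without that library. Ccr2, the receptor that brings monocytes out of the marrow, was at 11.3 to 19.3 against 16.9 to 37.8 CPM, with LPS replicate 1 lowest of the exposed (0.81, SE 0.21). The list mean was above all unexposed libraries in 5 of 6 exposed ones, and the exception was LPS+bLF replicate 3.

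Alveolar macrophage markers were less uniform: 15 of 21 were higher, 7 at an unadjusted p under 0.05 and 0 without overlap, with a median of 0.24 (0.15 without control replicate 2 and 0.68 without control replicate 1). Ctsk, a collagen-degrading cathepsin, was at 9.94 to 14.3 CPM in the unexposed and 13.7 to 73.7 CPM in the exposed lungs, with 5 of 6 above all unexposed (1.31, SE 0.32, edgeR adjusted p = 0.299). Krt79 was at 3.38 to 7.66 against 7.27 to 47.1 CPM (1.57, SE 0.43). LPS replicate 1 held the top value of Ctsk and of Krt79, and without it their log2 fold changes were 1.03 and 1.04. Itgax (CD11c), the integrin of alveolar macrophages and dendritic cells, was at 25.8 to 38.8 against 37 to 84.6 CPM (0.72, SE 0.2). For these 3 the exposed range began just inside the unexposed range. The alveolar macrophage markers had a summed level of 1480 to 5170 CPM in the unexposed and 1560 to 8840 CPM in the exposed lungs, and the list holds fat genes that were high in the libraries with fat transcripts.

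Fc receptors and ITAM adaptors, which turn antibody binding into phagocytosis, were higher in 28 of 29 cases, 17 at an unadjusted p under 0.05 and 4 without overlap. The list median was 0.55, and the list mean was above every unexposed library in all 6 exposed ones (0.21 to 0.96 against -0.2 to 0.18). Fcgr2b, the inhibitory Fc receptor, was at 6.29 to 11.8 CPM in the unexposed and 11.5 to 25.7 CPM in the exposed lungs, so that bLF replicate 1 and LPS+bLF replicate 3 overlapped (1.06, SE 0.21). Lat2, an adaptor beneath these receptors, was at 6.79 to 10.7 against 12.6 to 25.5 CPM without overlap (0.97, SE 0.18, edgeR adjusted p = 0.119).

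Subunits of the phagocyte NADPH oxidase, which makes superoxide to kill microbes, followed the same pattern. Ncf1 (p47phox) was at 32.7, 28.3 and 35.4 CPM in control and 30.9, 34.5 and 33.8 CPM in bLF lungs, against 96.3, 51.9 and 60.3 CPM with LPS and 46.9, 58.4 and 57.9 CPM with LPS+bLF. The unexposed values lay within a narrow band and every exposed value above it (0.92, SE 0.16, edgeR adjusted p = 0.116; 0.76 without LPS replicate 1, where it was called at 0.0409). Cybb (gp91phox), the catalytic subunit, was at 17.3 to 24.4 against 27 to 59.3 CPM (0.91, SE 0.19). Of the 17 oxidase and inflammasome genes tested, 14 were higher, 10 at an unadjusted p under 0.05 and 4 without overlap, Ncf1 and Cybb among them. The list median was 0.55, and the list mean of all 6 exposed libraries was above all unexposed ones. Il18, a cytokine that inflammasomes release, was at 6.02 to 8.7 against 7.88 to 15 CPM, with 4 of 6 above the unexposed (0.52, SE 0.15). Pstpip1, which binds the inflammasome protein pyrin, was at 11.2 to 14.8 against 18.4 to 35.5 CPM without overlap (0.95, SE 0.16, edgeR adjusted p = 0.113).

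**Figure D2:**
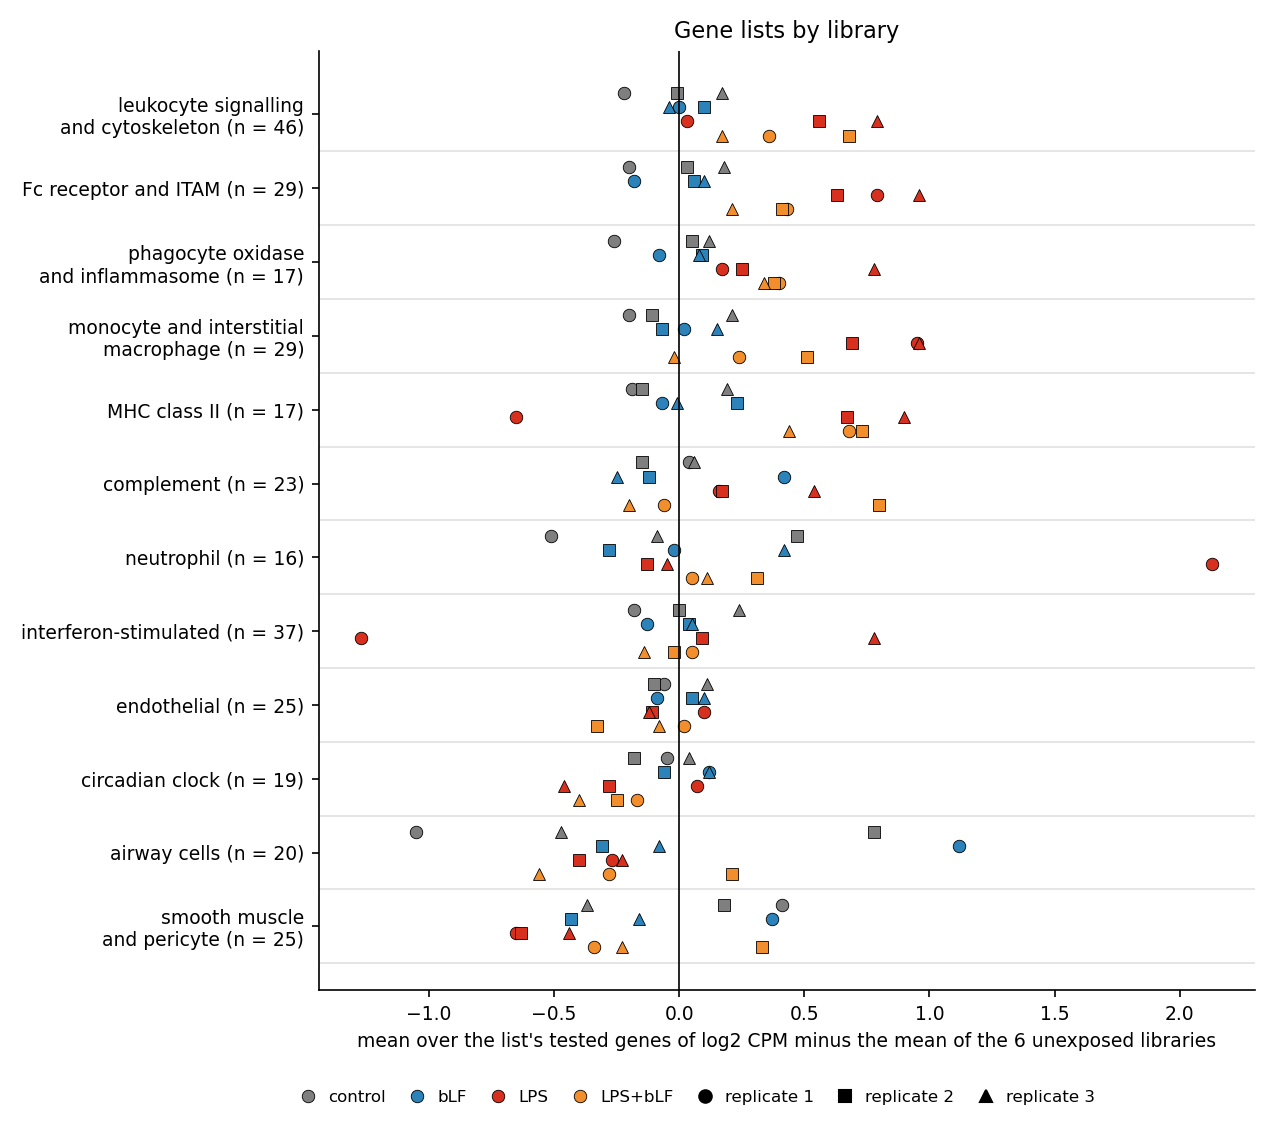
Mean over each list's tested genes of log2 CPM minus the mean of the 6 unexposed libraries, for 12 lists and 12 libraries; colours are groups, symbols are replicates and n is the number of tested genes. The Fc receptor and oxidase lists have all 6 exposed libraries on the right of all unexposed ones, while LPS replicate 1 lies apart at 2.13 for neutrophil markers and -0.65 for MHC class II genes.

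MHC class II genes, which present antigen on macrophages, dendritic cells and B cells, were higher in 17 of 17 cases (median 0.6, 5 at an unadjusted p under 0.05), yet LPS replicate 1 lay below all unexposed libraries. H2-Aa, an alpha chain, was at 396 to 611 CPM in the unexposed, 183 CPM in LPS replicate 1 and 746 to 1040 CPM in the other 5 exposed lungs (0.67, SE 0.33, edgeR adjusted p = 0.706). Without that library the median of the list was 0.75. Its members without overlap were Ctss and Cd80. Ctss (cathepsin S), the protease that trims the invariant chain, was at 49.9 to 96.1 CPM (median 81.3) in the unexposed and 106 to 261 CPM (median 151) in the exposed lungs (1.02, SE 0.23, edgeR adjusted p = 0.224). Cd80, a costimulatory ligand for T cells, was at 0.746 to 1.18 against 1.48 to 4.84 CPM (1.39, SE 0.29). Of 23 MHC class I presentation genes, 19 were higher with a median of 0.22. Psmb8, a catalytic subunit of the immunoproteasome, was at 75.2 to 103 against 106 to 142 CPM (0.57, SE 0.11), and Tap1, the peptide transporter, at 65.1 to 128 against 129 to 165 CPM (0.56, SE 0.16). Both lacked overlap by a small margin.

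Complement genes and receptors were higher in 17 of 23 cases, with 11 at an unadjusted p under 0.05 and a median of 0.46. C3ar1, the receptor for the C3a fragment, was at 0.975 to 1.41 CPM in the unexposed and 1.66 to 4.33 CPM in the exposed lungs (1.2, SE 0.24, edgeR adjusted p = 0.154). The lysosome and cathepsin list was higher in 27 of 32 cases, 4 without overlap, with a median of 0.24. Laptm5, a lysosomal protein of haematopoietic cells, was at 141 to 294 against 312 to 1340 CPM, where the top value was LPS replicate 1 (1.12, SE 0.36). Without that library its log2 fold change was 0.67.

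Among cytokine and chemokine receptors, 25 of 35 were higher, 12 at an unadjusted p under 0.05 and 2 without overlap, with a median of 0.34 (0.16 without LPS+bLF replicate 2). Il10ra, the ligand-binding chain of the receptor for the anti-inflammatory cytokine IL-10, was at 28.2, 15.8 and 24.7 CPM (control), 28.6, 31.8 and 26.6 CPM (bLF), 51.6, 50.8 and 45.1 CPM (LPS) and 40.3, 47.8 and 51.9 CPM (LPS+bLF). Every exposed lung was above every unexposed one, and the log2 fold change was 0.89 (SE 0.15, edgeR adjusted p = 0.113). The other receptor without overlap was Tnfrsf1b.

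The listed cytokines were not separated. Of 31 tested cytokines and chemokines, 22 were higher, 6 at an unadjusted p under 0.05 and 0 without overlap, with a median of 0.26. Tnf was at 0.619 to 1.49 CPM (median 1.09) in the unexposed and 0.14 to 2.65 CPM (median 1.57) in the exposed lungs (0.54, SE 0.49, edgeR adjusted p = 0.743). Il1b was at 5.31 to 21.2 against 13.5 to 22.8 CPM (0.28, SE 0.29), Ccl2, which attracts monocytes, at 0.328 to 1.51 against 0.172 to 4.49 CPM (0.22, SE 0.76), and the neutrophil chemokine Cxcl1 at 0.537 to 1.32 against 0 to 1.54 CPM (-0.05, SE 0.6). The ranges overlapped for all 4. Il6 and Cxcl2 reached 0.5 FPKM in 1 and 2 libraries and were below the filter. In an exact two-sided permutation test within lactoferrin strata on log2(FPKM + 1), where the smallest possible p is 0.005, p was 0.4 for Il6 and 0.33 for Cxcl2. Ebi3, a cytokine subunit shared by IL-27 and IL-35 that is not in the list, had no overlap, with 3.65 to 5.9 against 7.01 to 12.3 CPM (1.01, SE 0.19, edgeR adjusted p = 0.119, DESeq2 adjusted p = 0.000261). Ccl22, a chemokine of dendritic cells and macrophages, had the smallest p of the list, with 2.84 to 6.13 CPM in the unexposed and 2.59 CPM in LPS replicate 1 beside 6.48 to 14 CPM in the other 5 exposed lungs (1.16, SE 0.32, edgeR adjusted p = 0.424).

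Of the genes that sense LPS, Tlr4 was at 7.21 to 9.75 CPM (median 8.06) in the unexposed and 6.8 to 14.2 CPM (median 9.38) in the exposed lungs (0.23, SE 0.18, edgeR adjusted p = 0.716), and Cd14 at 7.93 to 22.4 against 9.39 to 34.6 CPM (0.33, SE 0.28). Both overlapped. Cd14 was at 28, 20.1 and 34.6 CPM with LPS and 15.5, 14.3 and 9.39 CPM with LPS+bLF, so that its log2 fold change was 0.84 (SE 0.34) without and -0.19 (SE 0.34) with lactoferrin; the interaction had an unadjusted p of 0.0536 in edgeR's quasi-likelihood test. Tlr2, the receptor for bacterial lipoproteins, did not overlap, with 9.68 to 11.7 CPM (median 11.1) in the unexposed and 13.8 to 28.1 CPM (median 17.1) in the exposed lungs (0.75, SE 0.15, edgeR adjusted p = 0.149). Unc93b1, which carries nucleic acid-sensing Toll-like receptors to endosomes, was at 82.2 to 117 against 130 to 187 CPM (0.59, SE 0.12). Over the 32 LPS recognition and NF-kB genes, 26 were higher with a median of 0.22, which was 0.1 without LPS replicate 1. The list mean was above all unexposed libraries in all 6 exposed ones. On the log2 scale relative to the unexposed mean it was at 0.09 to 0.35, against at most 0.05 in an unexposed library.

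Acute-phase and neutrophil products were high in LPS replicate 1 and mostly near the unexposed range in the other exposed lungs. Saa3, serum amyloid A of inflamed tissue, was at 1100 CPM in that library, 5.93 to 71.7 CPM in the other 5 exposed and 2.75 to 32.4 CPM in the unexposed lungs (3.37, SE 1.28, edgeR adjusted p = 0.691). Its log2 fold change was 0.94 without that library. Lcn2, the siderophore-binding lipocalin, was at 60.2 to 175 against 69.7 to 379 CPM (0.67, SE 0.33), and Ltf, the mouse's own lactoferrin of neutrophil granules, at 2.58 to 275 against 6.3 to 178 CPM (0.22, SE 2.25), with the high values in bLF replicate 1 and LPS replicate 1. Neutrophil markers had a median of 0.43 with all libraries and -0.05 without LPS replicate 1; Camp (1.7, SE 0.7) and Il1r2 (2.65, SE 1.19) had the smallest p, and were at 0.57 and 0.56 without that library. Camp was at 37.5 CPM in LPS replicate 1, 2.51 to 10.3 CPM in the other 5 exposed and 1.13 to 5.56 CPM in the unexposed lungs. Il1r2 was at 55.6 CPM in LPS replicate 1, 0.642 to 6.12 CPM in the other 5 exposed and 0.547 to 1.95 CPM in the unexposed lungs. Lrg1 and Slpi, epithelial and leukocyte secreted proteins, differed from these in that all 6 exposed lungs lay above the unexposed. Lrg1 was at 60.5 to 143 against 159 to 518 CPM (1.29, SE 0.29, edgeR adjusted p = 0.236), and Slpi, an inhibitor of neutrophil elastase, at 27.7 to 49.8 against 52.9 to 234 CPM (1.55, SE 0.38). Their log2 fold changes were 1.01 and 1.17 without LPS replicate 1.

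**Figure D3:**
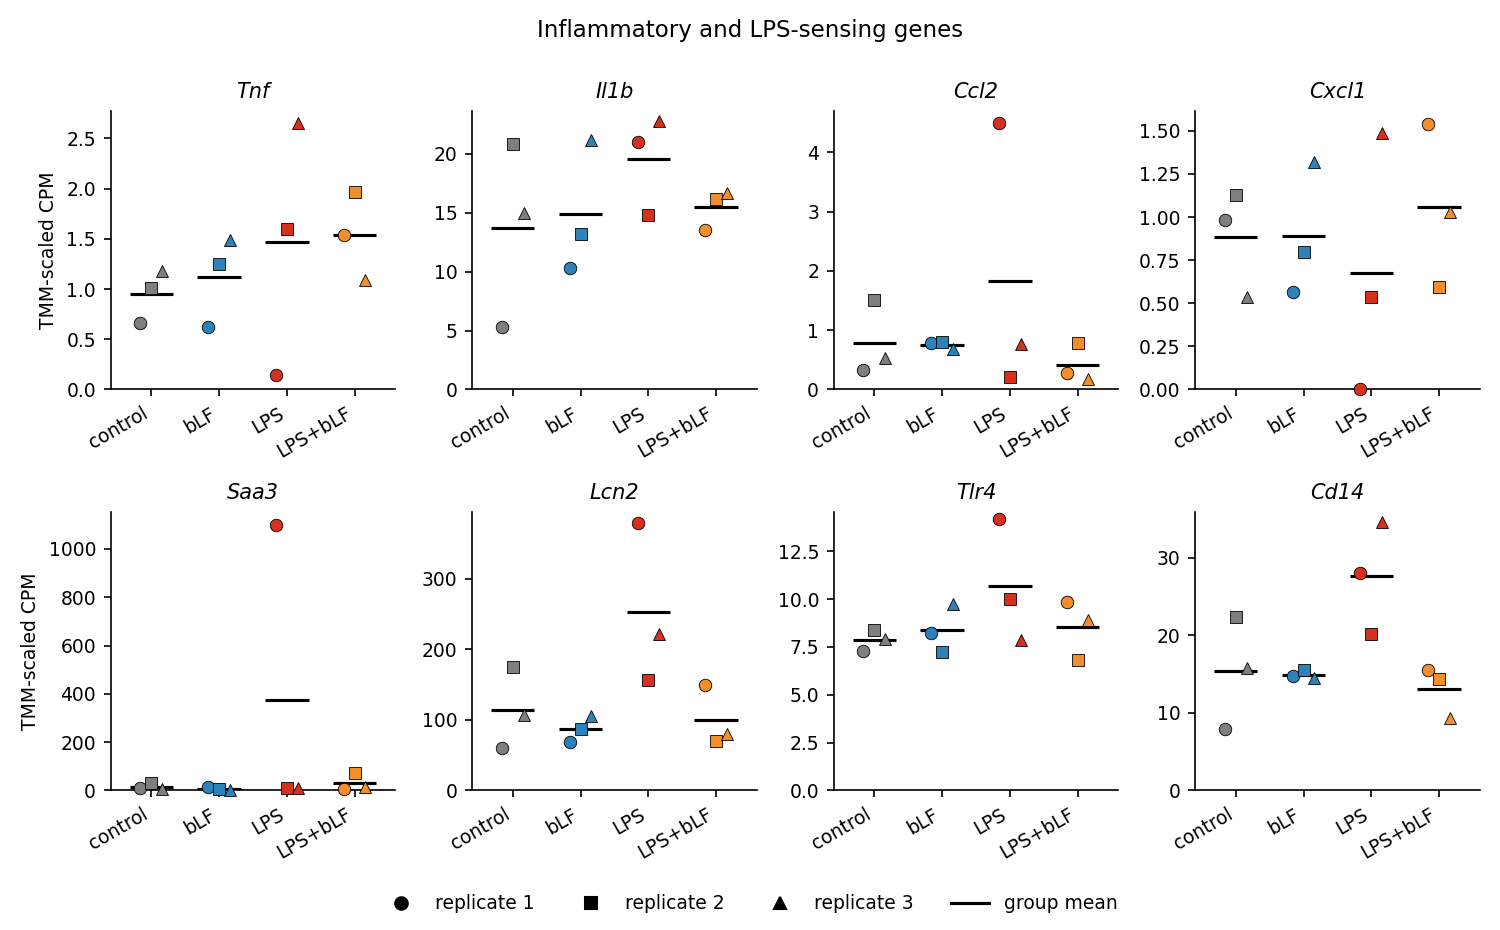
TMM-scaled CPM (linear axis from 0) of 8 inflammatory and LPS-sensing genes in the 12 libraries, by group; symbols are replicates and bars are group means of 3. Exposed and unexposed libraries overlap in every panel, and Saa3 is at 1100 CPM in LPS replicate 1 alone.

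Tgm1, a transglutaminase of barrier epithelia and macrophages, had the largest log2 fold change of the no-overlap genes at 1 FPKM or more. It was at 1.82 to 3.16 CPM (median 2.56) in the unexposed and 4.53 to 23.2 CPM (median 5.98) in the exposed lungs (1.85, SE 0.42, edgeR adjusted p = 0.242). The value without LPS replicate 1, the top library, was 1.28. Tnc (tenascin C), a matrix protein of tissue repair, was at 4 to 10.3 against 8.53 to 20.8 CPM, with 4 of 6 above the unexposed (1.02, SE 0.19, edgeR adjusted p = 0.119). Of 38 matrix genes, 29 were higher and 10 had an unadjusted p under 0.05, with a median of 0.34 that was 0.11 without LPS replicate 1. Of 33 cell cycle genes, 32 were higher (median 0.38, 5 at an unadjusted p under 0.05), and the median was 0.18 without the same library. Col3a1, a fibrillar collagen, was at 82.5 to 139 against 106 to 284 CPM (0.6, SE 0.18).

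Cytotoxic lymphocyte markers split the exposed lungs. Gzma (granzyme A) was at 22 to 37.8 CPM in the unexposed lungs, 3.72 CPM in LPS replicate 1, 93.1 and 80.9 CPM in LPS replicates 2 and 3, and 25.4 to 30.9 CPM in LPS+bLF lungs (0.62, SE 0.55). Nkg7 was at 8.11 to 14.8 CPM in the unexposed and 2.59 CPM in LPS replicate 1, with 15.1 to 33 CPM in the other 5 (0.76, SE 0.45). All 16 tested markers had a positive fitted difference (median 0.66), with 1 at an unadjusted p under 0.05. Klra3, an Ly49 receptor of NK cells outside that list, showed no overlap, with 1.84 to 3.75 against 3.94 to 11.2 CPM (1.31, SE 0.29). Its top value was in LPS replicate 1, where the mean of the cytotoxic list was -2.35, so it did not follow these markers there. Ly49 genes are similar in sequence, so the reads of Klra3 are uncertain. T cell markers (13 of 16 higher, median 0.54) and B and plasma cell markers (14 of 19, median 0.33) had larger medians with lactoferrin (0.74 and 1.04) than without it (0.22 and -0.4). LPS replicate 1 was the lowest of the exposed for both lists, at -0.97 and -2.09, and LPS+bLF replicate 2 the highest, at 1.21 and 1.51. The medians were 0.33 and -0.06 without LPS+bLF replicate 2. Interferon-stimulated genes were even, with 19 of 37 higher and a median of 0.01, but their list mean was -1.27 in LPS replicate 1 and 0.78 in LPS replicate 3. Among them Trim30a alone lacked overlap, at 10.1 to 12.6 against 12.8 to 15.6 CPM (0.28, SE 0.1).

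Fewer genes were lower. Smad6, an inhibitor of BMP signalling that is high in endothelium (chromosome 9, 63953076 to 64022085), led them. It was at 310, 251 and 324 CPM in control and 314, 319 and 379 CPM in bLF lungs, against 175, 170 and 221 CPM with LPS and 237, 211 and 213 CPM with LPS+bLF. Every exposed lung was below every unexposed one, and the log2 fold change was -0.63 (SE 0.11, 1.55-fold lower, edgeR adjusted p = 0.116, DESeq2 adjusted p = 9.24e-06). It was between -0.69 and -0.59 when any 1 library was left out, and near-equal without and with lactoferrin (-0.65 and -0.62).

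Several other genes had smaller differences with the same separation. Ednrb, the endothelin B receptor, was at 35 to 49.6 CPM (median 42.2) in the unexposed and 28.5 to 32.6 CPM (median 30) in the exposed lungs (-0.47, SE 0.11, edgeR adjusted p = 0.27). Igf1r, the receptor for insulin-like growth factor, was at 54.9 to 59.2 CPM (median 56.1) and 40.4 to 49.9 CPM (median 44.7), a difference of -0.34 (SE 0.08). The small spread of Igf1r in both groups is what separates it despite a 1.27-fold difference. Kitl, the ligand of the KIT receptor, was at 136 to 148 against 92.9 to 128 CPM (-0.35, SE 0.1), Sox13 at 114 to 161 against 70.6 to 111 CPM (-0.5, SE 0.13), and the transcription factor Zeb1 at 48.3 to 59.1 against 29.6 to 47 CPM (-0.46, SE 0.12). Vegfd, a lymphatic growth factor, and Gria1, a glutamate receptor subunit, were among the 6 smallest p-values in this direction but overlapped in 1 exposed library each, LPS+bLF replicate 1 at 50.1 and 17 CPM. Ednrb was the only 1 of 25 tested endothelial markers without overlap, and the median of that list was -0.12. Its marker sum was 6950 to 9180 CPM in the unexposed and 6040 to 10400 CPM in the exposed lungs.

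Gstm1 and Slc25a47 also lacked overlap but rested on LPS replicate 1 for their size. Gstm1, a glutathione transferase, was at 878 to 1150 CPM in the unexposed, 160 CPM in LPS replicate 1 and 604 to 859 CPM in the other exposed lungs (-0.58, SE 0.3; -0.36 without that library). Slc25a47 was at 2.02 to 3.46 CPM against 0 CPM in that library and 1.55 to 1.93 CPM in the others (-0.81, SE 0.54).

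Of 37 genes of drug metabolism, 30 were lower, 9 at an unadjusted p under 0.05, with a median of -0.39, while 4 were higher at that threshold. The background for lower genes at that p is 1.96% of all tested. Cyp7b1, which hydroxylates oxysterols, was among those higher, at 2.84 to 4.14 against 3.34 to 11.2 CPM (0.87, SE 0.25). Airway cell markers had 18 of 20 lower (median -0.39), 3 at an unadjusted p under 0.05, and the median was -0.11 without control replicate 2, in which Scgb1a1 of club cells took 23.8% of the counts. Cyp2f2 of club cells was at 1210 to 6530 against 460 to 2570 CPM (-0.99, SE 0.44) and Aldh1a1 at 324 to 863 against 328 to 499 CPM (-0.55, SE 0.23). The airway marker sum was 28600 to 271000 CPM in the unexposed and 25800 to 70500 CPM in the exposed lungs, and the share of airway in each piece of lung is not given in the labels, so its part in these values was not tested.

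Smooth muscle and pericyte markers had 19 of 25 lower (median -0.36), and the median was -0.51 without and 0.08 with lactoferrin, and -0.11 when control replicate 1 was left out. The list shares Actc1 and Pln with the heart muscle genes. Its mean was highest in control replicate 1 (0.41), bLF replicate 1 (0.37) and LPS+bLF replicate 2 (0.33). The heart muscle genes were also highest in these libraries, at 1.36, 3.39 and 3.23. The part of heart tissue in the smooth muscle values was not tested. Myh11, the smooth muscle myosin heavy chain, was at 151, 146 and 90 CPM (control), 90.3, 71.7 and 90.3 CPM (bLF), 51.4, 52.1 and 62.6 CPM (LPS) and 75.7, 78.3 and 60.9 CPM (LPS+bLF). LPS replicates 1 and 2 were lowest, and LPS+bLF replicates 1 and 2 lay inside the bLF range (-0.73, SE 0.2, edgeR adjusted p = 0.425). Cnn1 was at 50.5 to 97.4 against 27.8 to 58 CPM (-0.71, SE 0.23). Of the alveolar epithelium, Sftpc was at 35100 to 66800 against 29400 to 91400 CPM (0.14, SE 0.31) and the type 1 cell receptor Ager at 4560 to 8800 against 4410 to 8040 CPM (-0.01, SE 0.2). The 20 alveolar markers had a median of -0.03.

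Clock genes were lower in 13 of 19 cases, 6 at an unadjusted p under 0.05 and 0 higher at it, with a median of -0.19 (-0.07 when LPS+bLF replicate 1 was left out, and -0.37 when LPS replicate 1 was). Per3 was at 39.6 to 69.8 CPM (median 56.1) in the unexposed and 28.4 to 42 CPM (median 33.4) in the exposed lungs, with 5 of 6 below all unexposed (-0.69, SE 0.16, edgeR adjusted p = 0.27, DESeq2 adjusted p = 0.021). Per2 was at 7.11 to 34.1 against 5.04 to 11.6 CPM (-1.21, SE 0.32), where control replicate 1 at 7.11 CPM lay among the exposed. Both encode repressors of the clock whose level follows the hour of day, and the hour at which lungs were taken is not given in the labels. Hour and exposure cannot be told apart here.

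**Figure D4:**
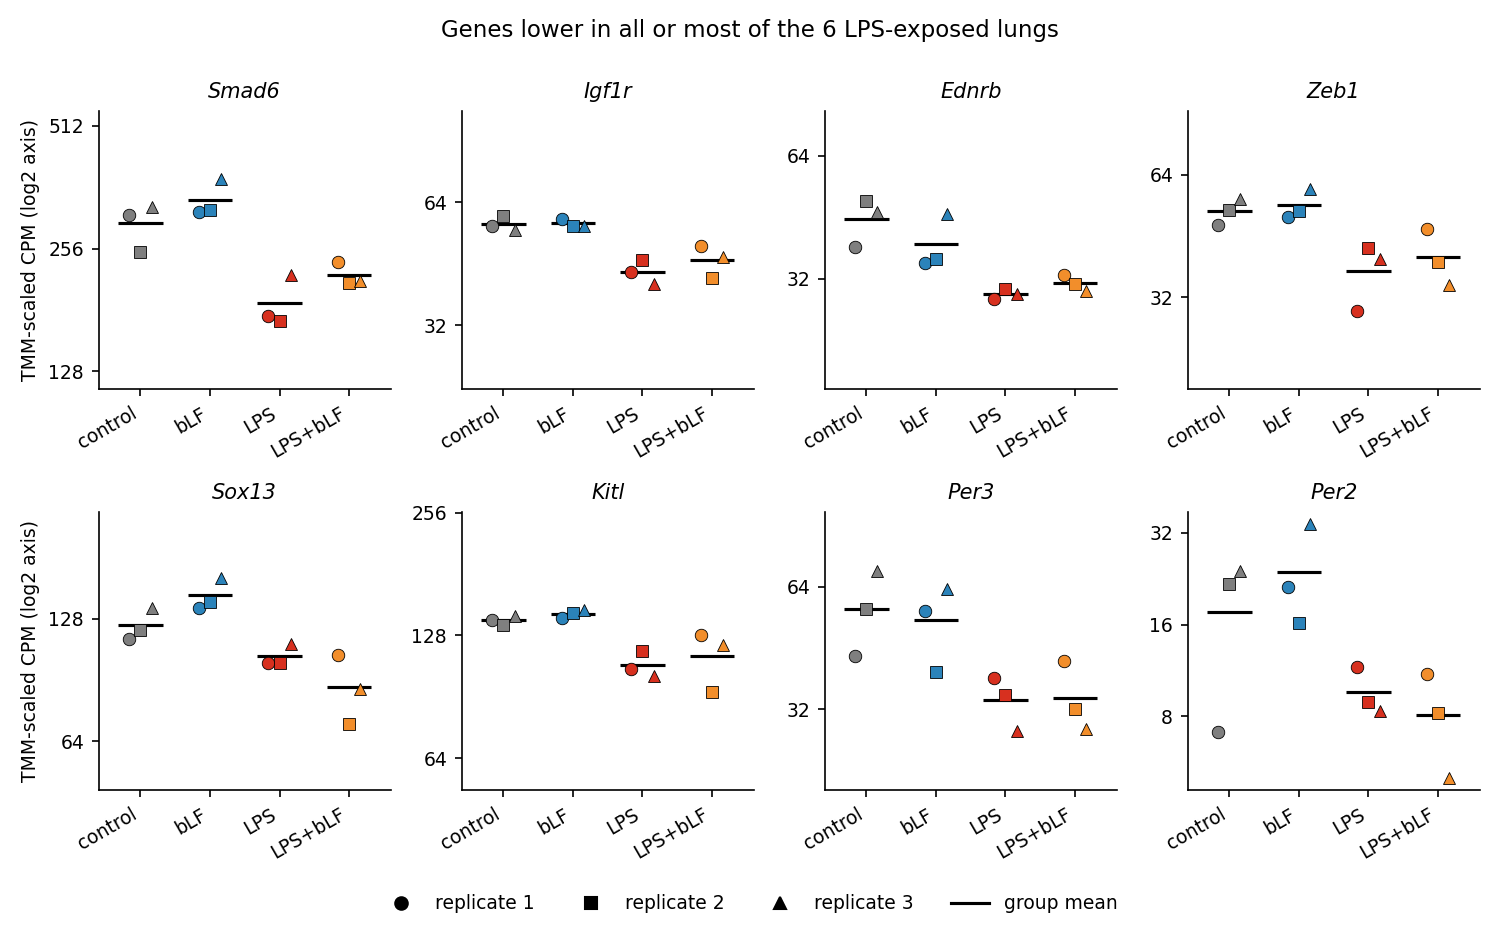
TMM-scaled CPM (log2 axis) of 8 genes in the 12 libraries, by group; symbols are replicates and bars are group means of 3. The exposed libraries lie below all unexposed ones for Smad6 (170 to 237 against 251 to 379 CPM), Igf1r, Ednrb, Zeb1, Sox13 and Kitl, and overlap for Per3 and Per2.

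The additive model assumes that LPS acts alike without and with lactoferrin. The contrasts LPS against control and LPS+bLF against bLF share no library and were set side by side in a fit of 4 group means. LPS against control gave 758 genes higher (5.52%) and 222 lower (1.62%) at an unadjusted p under 0.05, and LPS+bLF against bLF gave 226 higher (1.65%) and 140 lower (1.02%). Both shares of LPS+bLF against bLF, and the lower share of LPS against control, were below what that p gives with nothing to find. Those counts are therefore not read as an excess. The higher share of LPS against control (5.52%) was above its part, and whether it is an excess was not tested. By edgeR's quasi-likelihood test 0 genes were called in either contrast, and DESeq2 called 139 and 2. Of the 758 genes, 591 (78%) were also higher with lactoferrin, and of the 222 lower genes 124 (55.9%) were also lower. In reverse, 163 of the 226 (72.1%) and 104 of the 140 (74.3%) kept the sign, against 60.3% of all tested genes. Over all tested genes the log2 fold changes of the contrasts had a Spearman correlation of 0.23 and a Pearson correlation of 0.0. Both contrasts had an unadjusted p under 0.05 and the same sign for 86 genes, 73 higher and 13 lower. Among them were Ms4a7, Bcl2a1d, Siglece, Slamf9, Snx20, Cyth4, Il10ra, Ncf1, Clec12a, Tlr2, Smad6, Igf1r, Zeb1 and Per3.

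Over the 103 higher no-overlap genes the median log2 fold change was 0.91 without and 0.52 with lactoferrin, and 90 of 103 were smaller with it. Of all 13735 tested genes, 8848 were smaller with it. Since these genes were chosen for being separated in both contrasts at once, their shared sign is fixed by the choice. The interaction had an unadjusted p under 0.05 for 384 genes (2.8%), 16 of them among the 103, with 0 called by edgeR and 1 by DESeq2. That share is below the 0.05 that arises with nothing to find, so the count is not an excess. The interaction p-values that follow describe single genes and do not establish a difference between the contrasts. Ms4a7 had 2.25 (SE 0.3) without and 1.21 (SE 0.3) with lactoferrin (edgeR quasi-likelihood interaction, unadjusted p = 0.0304 and Benjamini-Hochberg adjusted p = 1 over 13735 genes). Ctss had 1.57 and 0.48 (unadjusted p = 0.00658), Klra3 2.02 and 0.61 (0.00559), and Pik3r5 1.39 and 0.42 (0.00481). Clec12a (0.82 and 0.85), Snx20 (0.94 and 0.87), Lat2 (1.01 and 0.94) and Smad6 were of near-equal size in both. LPS replicate 1 enters only the contrast without lactoferrin.

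The 6 genes with the smallest interaction p were other genes, and edgeR called none of them. H2-Bl, an MHC class I gene, was at 9.52, 7.54 and 10.8 CPM (control), 16.9, 12 and 13.5 CPM (bLF), 43.4, 19.8 and 28.6 CPM (LPS) and 12.6, 13.7 and 12.2 CPM (LPS+bLF). Its LPS lungs were above all others, whereas LPS+bLF lungs lay within the bLF range (1.71 without and -0.14 with lactoferrin, edgeR adjusted p = 1). For Gm10499 (1.27 and -0.17) and Gm11127 (1.14 and -0.15) the LPS lungs were also above all others. Their LPS+bLF lungs were not all within the bLF range. Gm10499 was at 28 to 33.1 CPM with LPS+bLF against 30.1 to 38.8 CPM with bLF, and Gm11127 at 4.61 to 6.26 against 5.74 to 6.08 CPM. Class I reads can be split among similar copies. Asgr1, a subunit of the asialoglycoprotein receptor, was at 1.34 to 2.03 CPM in the LPS and 3.97 to 8.68 CPM in the other lungs (-1.8 and 0.05). Nr4a1 (-0.43 and 0.67) and Serpinb1a (-0.35 and 0.99), an inhibitor of neutrophil proteases, differed in sign between the contrasts.

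**Figure D5:**
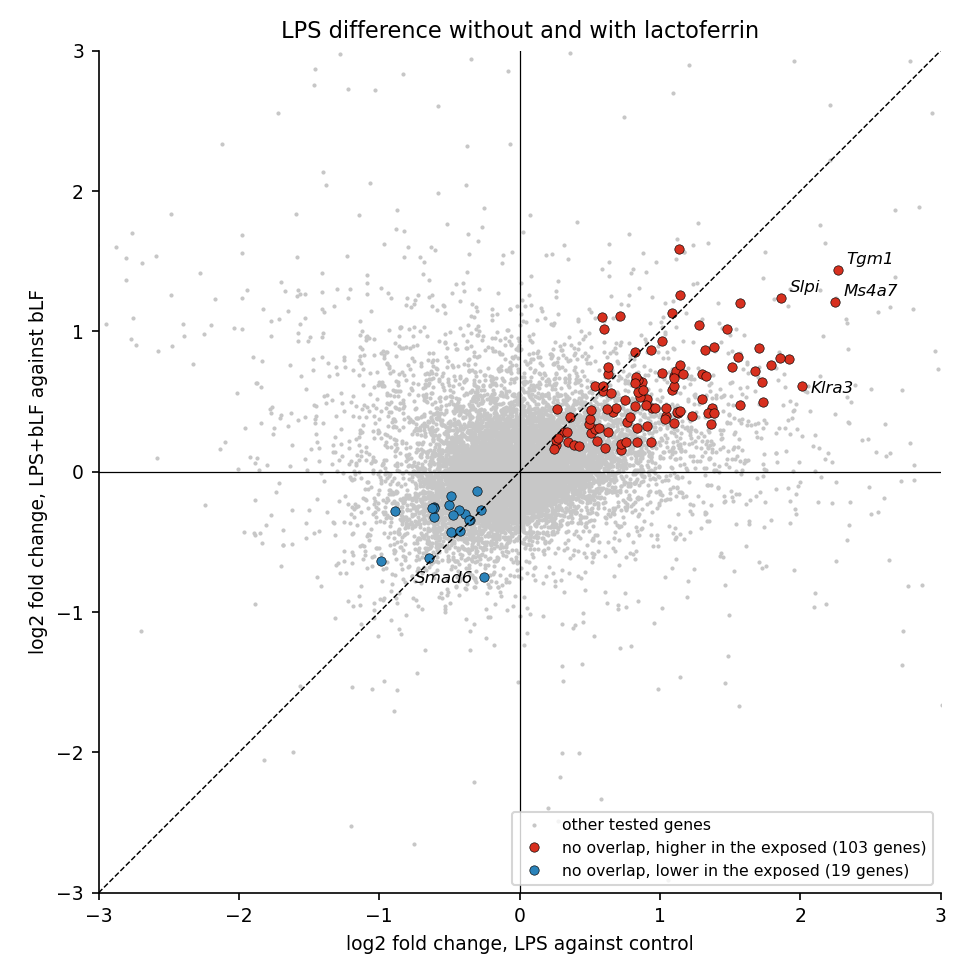
Log2 fold change of LPS against control (x) and of LPS+bLF against bLF (y) for the tested genes; the dashed line marks equal values, and 115 genes lie outside the axes of -3 to 3. The 103 genes higher without overlap (red) lie mostly under the line, with medians of 0.91 on x and 0.52 on y, and the 19 lower ones (blue) have medians of -0.49 and -0.3.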

How the data were processed

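RNA from lung tissue of 12 mice, 3 per group, was sequenced as polyA libraries. Per the submitters' processing notes, the authors used HISAT2 2.1.0 and RSEM 1.2.8 with mm10; the order of these steps is not given in the sources used here. Per the file headers, each deposited table holds an expected count and an FPKM value per gene; 4.1 to 5.9% of the expected counts of a library were not whole. They were rounded for testing. The members, gene lists and tests were chosen with earlier results of these data known.

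The 13735 of 17920 genes that reached 0.5 FPKM in 3 or more libraries were tested in edgeR 4.0.16 (R 4.3.3, TMM factors, quasi-likelihood test, Benjamini-Hochberg adjustment over all tested genes) with an additive design of lactoferrin and LPS and 9 residual degrees of freedom. A gene was called at an adjusted p under 0.05. A fit of 4 group means gave the LPS effect without and with lactoferrin and their interaction. Levels are TMM-scaled CPM, computed here from the deposited counts, in place of the FPKM first planned for this purpose. Alternatives were DESeq2 1.42.0, limma 3.58.1 on log2(FPKM + 0.1, 1 or 5), voom with array weights, other scaling factors, filters and designs, a replicate block, and leaving out libraries. Counts were simulated for the additive comparison (13735 genes), with 200 genes changed, all of them at a mean above 1 CPM. Of these, edgeR recovered 66% of changes of log2 size 1 and 92% of log2 size 2, and DESeq2 79% and 97%.

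Genes were named by rule: the 6 smallest p-values in each direction and the 6 largest differences among no-overlap genes at a mean of at least 1 FPKM, the 2 smallest p-values of each list described, the 6 smallest interaction p-values, and a set of inflammatory and cell type genes named whatever their test. Named after their values were seen were Clec12a, Irf5, Pstpip1, Mcemp1, Spi1, C1qa, Mrc1, Kitl, H2-Aa, Laptm5, Ptprc, Lat2, Cd200r1, Cd200r4, Unc93b1, Pik3r5, Klra3, Fcgr2b, Ebi3 and Tnfrsf1b. Some genes met by these rules are not reported here. Replicate numbers are shared between groups, but correlations of same-numbered deviations ran from -0.69 to 0.57, so the samples were not treated as paired. Of the gene IDs, 17869 were found in the RefSeq table, whose build (GRCm38.p6) supplied coordinates and promoters; 10930 tested genes had a promoter there.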

Additional observations from a re-analysis of the deposited data

Results flagged for a closer look

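In groups of 6 libraries, a library was picked out when its gap to the next one, divided by the range of the group, exceeded Dixon's critical value, which chance alone does in about 1 of 20 groups. This was so in 32 of 258 groups (12.4%), and LPS replicate 1 was the library in 21 of them.

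Among the exposed libraries, LPS replicate 1 was highest for Ncf1 at 96.3 CPM, Mcemp1 at 101 CPM, Lrg1 at 518 CPM, Spi1 at 184 CPM, Mrc1 at 116 CPM, Laptm5 at 1340 CPM, Ccl2 at 4.49 CPM, Ltf at 178 CPM, Il6 at 1.47 CPM and Cxcl2 at 4.21 CPM. The same library was lowest for Irf5 at 16.8 CPM, H2-Aa at 183 CPM, Gstm1 at 160 CPM, Nkg7 at 2.59 CPM and Slc25a47 at 0 CPM. Its list mean, on the log2 scale relative to the unexposed libraries, was 2.13 for neutrophil markers, 0.92 for extracellular matrix genes, 1.32 for cell cycle genes and 1.82 for glucocorticoid-induced genes, and -0.96 for dendritic cell markers and -0.65 for MHC class II genes.

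LPS replicate 3 stood apart for Tlr2 at 28.1 CPM. LPS+bLF replicate 2 stood apart for brown and white fat genes at 5.2 and nuclear oxidative phosphorylation subunits at 1.39, and LPS+bLF replicate 3 for skeletal muscle genes at 6.01 and squamous epithelium genes at 6.64. Among the unexposed libraries, bLF replicate 1 stood apart for squamous epithelium genes at 2.3 and for Ltf at 275 CPM, bLF replicate 2 for Ccl22 at 6.13 CPM and bLF replicate 3 for Col3a1 at 82.5 CPM. Control replicate 2 was the lowest unexposed library for Il10ra at 15.8 CPM and Spi1 at 46.3 CPM.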

How the results depend on the processing

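Of 2381 values of 89 named genes under the alternatives, 2229 kept their direction and their side of the threshold, 117 passed the threshold with the same direction and 35, in 10 genes, changed sign. The number of genes called higher, 0 with edgeR, was 96 with DESeq2, 125 with voom array weights, 1 without LPS replicate 1 and the 4 libraries high in genes of other tissues, and 0 to 11 with any 1 library left out, the 11 being without LPS replicate 1. The number called lower, also 0, was 14 with DESeq2 and 24 with voom array weights. The 103 higher genes without overlap were 68 on FPKM, 57 at a mean of at least 5 FPKM, 413 without the 4 libraries, 739 without these and LPS replicate 1, and 119 to 169 with any 1 library left out. The 19 lower ones were 257 and 427 without these sets of libraries and 25 to 92 with any 1 left out (92 without LPS replicate 3); fewer libraries make separation easier by construction. LPS against control had 0 calls with edgeR, 139 with DESeq2, and 0 to 25 with any 1 library left out (25 without LPS replicate 1). LPS+bLF against bLF had 2 calls with DESeq2 and the interaction 1. The replicate block gave 0 calls, with 606 genes higher and 212 lower at an unadjusted p under 0.05; the numbers are shared labels only, and this pairing changed no other call.

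Without the 4 libraries the log2 fold change was -0.06 for Serpinb1a, -0.03 for Il1b, -0.03 for Nr4a1, 0.06 for Cxcl1 and 0.09 for Ager. Without LPS replicate 1 as well it was -0.42 for Saa3, -0.22 for Il1r2, -0.08 for Il1b, -1.14 for Ccl2 and 0.41 for Cxcl1. Ccl2 was at -0.31 and -0.06 with limma on log2(FPKM + 0.1) and log2(FPKM + 1) and at -1.05 with voom array weights, under which Cxcl1 was at 0.3. Ltf was at -0.4 with no lactoferrin covariate, and Ager at 0.00 with DESeq2 and with RLE size factors. With any 1 library left out the ranges were -0.04 to 0.28 for Sftpc, -0.79 to 0.49 for Ccl2, -1.31 to 2.38 for Ltf, -0.5 to 0.22 for Cxcl1 and -0.1 to 0.1 for Ager. The cause of these reversals was not tested. Of 722 list medians under the alternatives, 707 moved by less than the spread between replicates and 15 by more, and 13 of 38 lists changed sign under at least 1 alternative. The median of all tested genes was -0.01 with TMM, 0.01 with RLE and -0.04 with upper-quartile factors. Genes at few counts, such as Slc25a47 and Tnf, are limited by depth.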
